A study of Mus musculus with 16 samples.

Results

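The genes described here encode the translation initiation and elongation factors, the proteins that place a ribosome on an mRNA and then move it along the message. They were taken from the gene table by name, as every symbol that begins with Eef or Eif followed by a digit, without the kinases Eif2ak and Eef2k and without pseudogenes marked -ps. Of 13015 genes in the table, 53 met this rule, 6 elongation factor genes (Eef) and 47 initiation factor genes (Eif). The name decides the class, so Eef1e1, a scaffold protein of the aminoacyl-tRNA synthetase complex, stood with the elongation factors, and Eif5a, whose protein also acts during elongation, stood with the initiation factors.

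RNA was measured in NIH/3T3 cells, an established mouse fibroblast line, after transfection with a non-targeting control siRNA (siControl) or with siRNA against Apc (siAPC), the mRNA of the adenomatous polyposis coli protein. Culture conditions were alike in all groups. The cells had no serum and sat on a porous membrane (pore diameter 3.0 µm), where they attached during 2 h. Lysophosphatidic acid (LPA), a signalling lipid, was then given from below (1 h), and paraformaldehyde (0.3%, 10 min) stopped the experiment. Protrusions that had grown through the pores (Ps) and the cell bodies left above (CB) were scraped off different membranes. By the study's methods, more membranes were used for Ps than for CB. This gave 4 groups, 1 for each fraction and siRNA, with 4 libraries in each. In bulk fractions of this kind, more RNA of a gene in the fraction and less of other RNAs cannot be told apart, and neither can fewer cells and less RNA per cell. The comparisons ask which RNAs are enriched in protrusions and whether that enrichment depends on APC. The labels give replicate numbers and do not say whether these were separate cultures, while the study calls them independent replicates. The p-values measure the spread between these libraries only.

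In initiation, eIF2 brings the initiator tRNA to the small ribosomal subunit, eIF3 organises the complex there, and the eIF4 factors bind the capped end of the mRNA and unwind it. In elongation, eEF1A delivers each aminoacyl-tRNA, the eEF1B subunits recharge eEF1A with GTP, and eEF2 moves the ribosome by one codon. Many elongation factor mRNAs, some eIF3 mRNAs and the ribosomal protein mRNAs begin with a pyrimidine tract at the cap, the 5' terminal oligopyrimidine (TOP) motif, through which mTOR signalling controls their translation.

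The tract itself is shown for a few members because the TOP list recurs in the results below. Sequences around the annotated transcription start were taken from RefSeq (GRCm38.p6), where 41 of the 53 members matched by symbol. A window from 25 bases before to 35 bases after each start was searched on the sense strand for a C followed by at least 6 bases that are each C or T. In the lines that follow, 30 bases are printed 5' to 3' on the strand of the gene, with the tract in capitals (for Eif3l the first of 2 tracts, the second being the ctctctccc further on in lower case). They were chosen, with the values known, to show 4 members that fell in siAPC protrusions (Eef2, Eif3f, Eif3l and Eif2s3x), 1 that rose there (Eif2b2), 1 that was not called there (Eif4e) and 1 of the 2 members depleted from protrusions (Eif4g1).
Eef2: acgtcagcggtCTCTTCCgccgcagccgcc
Eif3f: ttctaggCTCTCTCTCTTTCTCggcaagat
Eif3l: ggcgcggagttCTTCTTCCgctctctccca
Eif2s3x: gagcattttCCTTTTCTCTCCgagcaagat
Eif2b2: gcggaagttgaCCTCTCTCggcccggaagt
Eif4e: tttcctctcgCCCCCCCTTCaggagcggtt
Eif4g1: aatcccatgtgCTTCCCCggcgccagcgca
These windows lie at chr10:81176635-81176664 (plus strand) for Eef2, chr7:108934404-108934433 (plus) for Eif3f, chr15:79075207-79075236 (plus) for Eif3l, chrX:94212632-94212661 (minus) for Eif2s3x, chr12:85219475-85219504 (plus) for Eif2b2, chr3:138527246-138527275 (plus) for Eif4e and chr16:20672692-20672721 (plus) for Eif4g1, each across or beside an annotated start of its gene. The first base of the tract stood at position 16 of the annotated transcript in Eef2, 4 bases before the start in Eif3f and 24 bases before it in Eif4g1.

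A tract of this kind was found in 15 of the 41 members (36.6%) and in 29.7% of the 9170 table genes with a RefSeq entry. The median log2 of Ps over CB in siControl was 0.46 in the 15 members with a tract and 0.50 in the 26 without, and that of siAPC over siControl in Ps was -0.24 and -0.10. Over 12 combinations of tract length and window, the share of members with a match ran from 17.1% to 58.5%, and that of all genes from 8.06% to 60.4%. The median of Ps over CB was higher with a tract in 7 of the 12 and lower in 5. The median with siAPC in Ps was lower with a tract in 12 of 12. These combinations overlap and use the same members and libraries, so they do not count as separate observations. Of the 9 members on the TOP list used below, Eef1d, Eef1g, Eif3e and Eif3h are among those not matched in RefSeq and so are in neither group, and Eef1b2 is among those without a tract. A match is a description of these letters, and annotated starts can lie away from the start used in these cells.

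The libraries held between 13466225 and 20296087 reads in listed genes. Values are log2 of read counts relative to a scaled library size (log2 CPM), and a level of 3 reads corresponded to -2.73 to -1.81 on this scale, so that all members except Eif4e1b (4 to 45 reads) and Eif5a2 (6 to 29 reads) stood well above it. Apc fell by 1.67 ± 0.25 (SE) on the log2 scale with siAPC in cell bodies and fell by 1.84 ± 0.25 in protrusions, and no siAPC library overlapped a siControl library of the same fraction. All 8 fibroblast markers were listed. In siControl 5 of them were lower in Ps (Col1a1, Col1a2, Col3a1, Pdgfra and Pdgfrb, -1.46 to -0.89), 2 were higher (Vim 0.81 and S100a4 0.70) and Thy1 did not pass the test. Thy1 was as low as -2.31 on average, and the 4 listed markers of epithelial, immune and endothelial cells summed to 3.62 to 4.13 log2 CPM in any library, against 14.16 to 15.18 for the fibroblast markers.

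1 library has to be named before the results. In siControl CB replicate 3, 16 of the 53 members had the highest and 32 the lowest value of the 4 libraries of that group, and the correlation of its values with GC content across genes was -0.54 (Spearman's rho of the deviation from the group mean over 10243 genes), the strongest trend of that group. Replicate 2 showed the strongest such trend in each of the other groups, between -0.66 and -0.59. Calls of members that changed without siControl CB replicate 3 are given beside the results.

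Both classes of factor were enriched in protrusions of control cells. In siControl, all 6 Eef genes were higher in Ps than in CB, with a median log2 of Ps over CB of 0.79, and 35 of the 47 Eif genes were higher, with a median of 0.53 (limma, Benjamini-Hochberg adjusted p below 0.05 over all 13015 genes). Over all genes the median was -0.001, 29.1% were called higher and 31.2% were called lower. The 2 members that were lower in Ps were Eif3j1 and Eif4g1, and the other 10 members, all Eif genes, did not pass the test. The lowest Ps library lay above the highest CB library for 6 of 6 Eef and 31 of 47 Eif genes, against 24.0% of all genes, and the reverse held for 2 Eif genes, against 26.5%.

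Measured per pair of same-numbered libraries, the median over the Eef genes was 0.79 ± 0.12 (SD, n = 4 pairs) and that over the Eif genes 0.52 ± 0.01. The Eef median exceeded the Eif median in 4 of 4 pairs, by 0.28 ± 0.14. In siControl, libraries of the same number did not all deviate together, so these pairs are a matching by number only, and the SD depends on it. The order of the classes depended on how the values were scaled. With quantile normalization the Eef median was below the Eif median in 4 of 4 pairs, by 0.10 ± 0.05, while with a correction for GC content and length the difference was 0.45 ± 0.04 in the original direction. The cause was not tested.

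**Figure D1:**
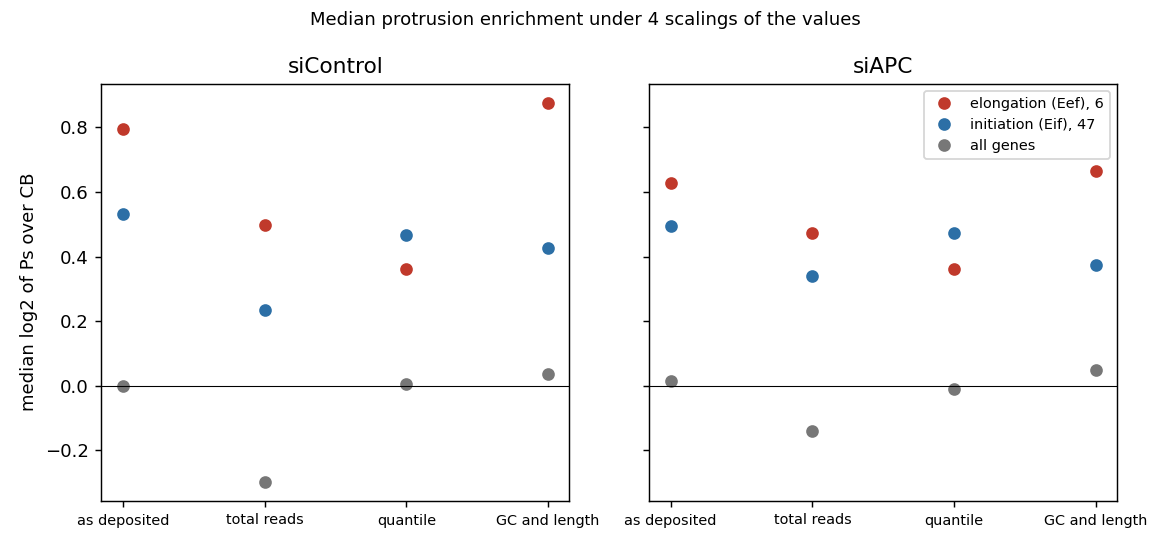
Median of the limma estimates of log2 Ps over CB (vertical axis) over the 6 Eef genes (red), the 47 Eif genes (blue) and all genes (grey), for siControl (left) and siAPC (right), under the deposited scaling and 3 others (horizontal axis). Both classes lay above all genes under each of the 4 scalings, and the Eef median lay below the Eif median with quantile normalization only.

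The 2 elongation factors with the largest enrichment were Eef1b2 and Eef1a1. Eef1a1, which encodes the GTPase that carries aminoacyl-tRNA, measured 13.34, 13.18, 13.19 and 13.14 log2 CPM in siControl CB and 14.55, 14.15, 14.26 and 14.22 in siControl Ps. The libraries did not overlap, and the gene was 2.12-fold higher in Ps (log2 1.08 ± 0.10 SE, limma adjusted p = 2.83e-08). Reads of Eef1a1 may be shared with pseudogenes, since 60.6% of its 50-base segments recur in other annotated genes, and Eef1a1 values are uncertain to that extent. Eef1b2, a nucleotide exchange subunit for eEF1A, measured 10.48, 10.46, 10.19 and 10.33 in siControl CB and 11.76, 11.55, 11.43 and 11.40 in siControl Ps, again with no overlap. It was 2.25-fold higher in Ps (1.17 ± 0.08, adjusted p = 5.74e-10).

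The other eEF1B subunits followed at smaller size. Eef1g and Eef1d were 1.75-fold (0.80 ± 0.08) and 1.72-fold (0.78 ± 0.06) higher in Ps of siControl, and 64.3% of the segments of Eef1g recur elsewhere. Eef2, the translocase, measured 13.72, 13.67, 13.38 and 13.54 in siControl CB and 14.11, 13.75, 14.08 and 13.99 in siControl Ps. Its Ps values lay just above its CB values, at a log2 of Ps over CB of 0.40 ± 0.11 (adjusted p = 0.00377). Under quantile normalization Eef2 was lower in Ps (-0.34) and Eef1g did not differ by the test (-0.03, adjusted p = 0.587). Eef1e1 was 1.30-fold higher (0.38 ± 0.09).

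Counted as a share of all listed reads, the 6 Eef genes took 2.86% ± 0.11 (SD, n = 4) of siControl CB libraries and 3.98% ± 0.19 of siControl Ps libraries. The 47 Eif genes together took 1.28% ± 0.01 and 1.54% ± 0.03. Most of the Eef share came from Eef1a1 and Eef2, which took 3.18% ± 0.19 of siControl Ps. Per kilobase of transcript, Eef1a1 (5290.0 ± 326 CPM per kb, SD, n = 4) and Eef2 (3973 ± 410.4) had the highest levels of the 53 members in siControl CB, followed by Eef1g at 1697 ± 169.5 and Eif5a at 828 ± 87.4.

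**Figure D2:**
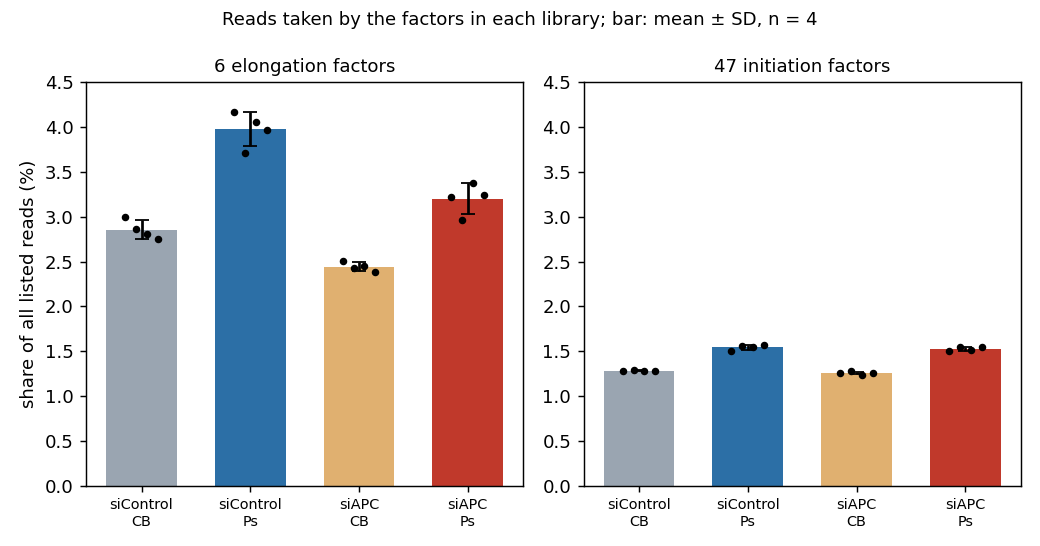
Share of all listed reads (percent, vertical axis from 0) that fell in the 6 Eef genes (left) and in the 47 Eif genes (right) in each group, with bars for the mean, error bars for the SD of 4 libraries and points for the libraries. The Eef share was between 2.76% and 3.00% in siControl CB and between 3.71% and 4.17% in siControl Ps.

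Among the initiation factors, eIF3, the large scaffold on the small subunit, was the largest group. Of 14 listed eIF3 genes, 12 were higher in Ps of siControl (all genes 29.1%), 1 was lower (Eif3j1, all genes 31.2%) and Eif3b did not pass the test (0.04 ± 0.07), with a median of 0.80. Eif3e measured 7.25, 7.23, 7.60 and 7.22 log2 CPM in siControl CB and 9.14, 9.02, 8.70 and 8.74 in siControl Ps. The groups were separate, and Eif3e was 2.97-fold higher in Ps (1.57 ± 0.12, adjusted p = 2.59e-09). Eif3m was 2.69-fold higher (1.43 ± 0.10), with 40.0% of its segments shared with other genes, and Eif3h 1.99-fold (0.99 ± 0.07). The shared part was 26.2% for Eif3h and 22.0% for Eif3e.

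Eif3a, the largest core subunit, measured 3.96, 3.85, 5.66 and 4.11 in siControl CB and 5.74, 6.06, 5.55 and 5.53 in siControl Ps. CB replicate 3 overlapped the Ps libraries. The log2 of Ps over CB was 1.32 ± 0.29 with this library and 1.75 ± 0.19 without it. The 2 genes for the loosely bound subunit eIF3j went in opposite directions. Eif3j1 measured 2.38, 2.44, 3.01 and 2.56 in siControl CB and 1.81, 2.31, 1.65 and 1.89 in siControl Ps, a fold of 0.62, while Eif3j2 was 1.88-fold higher in Ps. They share sequence, 54.8% of Eif3j1 segments and 91.8% of Eif3j2 segments recur in other genes, so that reads cannot be assigned with certainty between them.

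The 3 subunits of eIF2 were unequally distributed. Eif2s2, the beta subunit, measured 4.12, 4.11, 5.21 and 4.15 in siControl CB and 6.0, 6.12, 5.74 and 5.61 in siControl Ps, so that all Ps libraries lay above all CB libraries. It was 2.77-fold higher in Ps (1.47 ± 0.22), and 1.74 ± 0.17 on the log2 scale without CB replicate 3. Of the Eif2s2 segments, 27.8% recur elsewhere. Eif2s1, the alpha subunit, was 1.78-fold higher (0.83 ± 0.10), whereas Eif2s3x, the gamma subunit, did not pass the test (0.05 ± 0.09, adjusted p = 0.626). Eif2a, which encodes a separate initiator tRNA factor and not a subunit of eIF2, had the highest value of all members, 3.14-fold (1.65 ± 0.23, and 1.93 ± 0.18 without CB replicate 3).

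Of the 5 genes for eIF2B, the exchange factor that reloads eIF2, 3 were higher in Ps (Eif2b1, Eif2b3 and Eif2b5, 0.31 to 0.50), against 29.1% of all genes. Eif2b2 (0.05 ± 0.08) and Eif2b4 (-0.12 ± 0.08) did not pass the test, and Eif2b4 was called higher with the correction for GC content and length (0.14). Eif1 and Eif1a encode factors that govern scanning and the choice of start codon. These 2 genes, their relatives Eif1b and Eif1ax, and Eif1ad, named for an eIF1A domain, were all higher (all genes 29.1%). The values ran from 0.37 for Eif1b to 0.96 for Eif1a, though Eif1b lost its call without siControl Ps replicate 2 (0.27). Eif5 and Eif5b, which act when the subunits join, were higher by 0.60 ± 0.17 and 0.76 ± 0.21, or 0.82 and 1.02 without CB replicate 3.

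The parts of the cap-binding complex eIF4F also differed. Eif4e, the cap-binding protein, measured 4.77, 4.68, 4.88 and 4.75 in siControl CB and 5.25, 5.20, 5.28 and 5.34 in siControl Ps, which is 1.41-fold higher (0.50 ± 0.07). The scaffold Eif4g1 measured 9.29, 9.29, 9.17 and 9.31 in siControl CB and 8.48, 8.44, 8.80 and 8.74 in siControl Ps. All of its Ps libraries lay below all CB libraries, at a fold of 0.64 (log2 -0.65 ± 0.08, adjusted p = 1.12e-06). The value was -0.11 with the correction for GC content and length. Its relative Eif4g2, which lacks the eIF4E binding region, was 1.76-fold higher in Ps (0.81 ± 0.13).

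The helicase gene Eif4a1 was 1.26-fold higher (0.34 ± 0.06), with 65.3% of its segments shared with other genes, and Eif4a3, a core protein of the exon junction complex, did not pass the test (0.03 ± 0.07). Eif4a2 was not called in siControl (0.23 ± 0.12, adjusted p = 0.112) but was called without CB replicate 3 (0.37 ± 0.11, adjusted p = 0.00608). Among the proteins that restrain eIF4E, Eif4ebp1 was 1.59-fold higher, while Eif4ebp2 (0.15 ± 0.10) and Eif4enif1 (-0.11 ± 0.06) did not pass the test. The cap-binding paralogs Eif4e2 (0.51 ± 0.06) and Eif4e1b (1.44 ± 0.29) were higher, the latter from few reads.

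**Figure D3:**
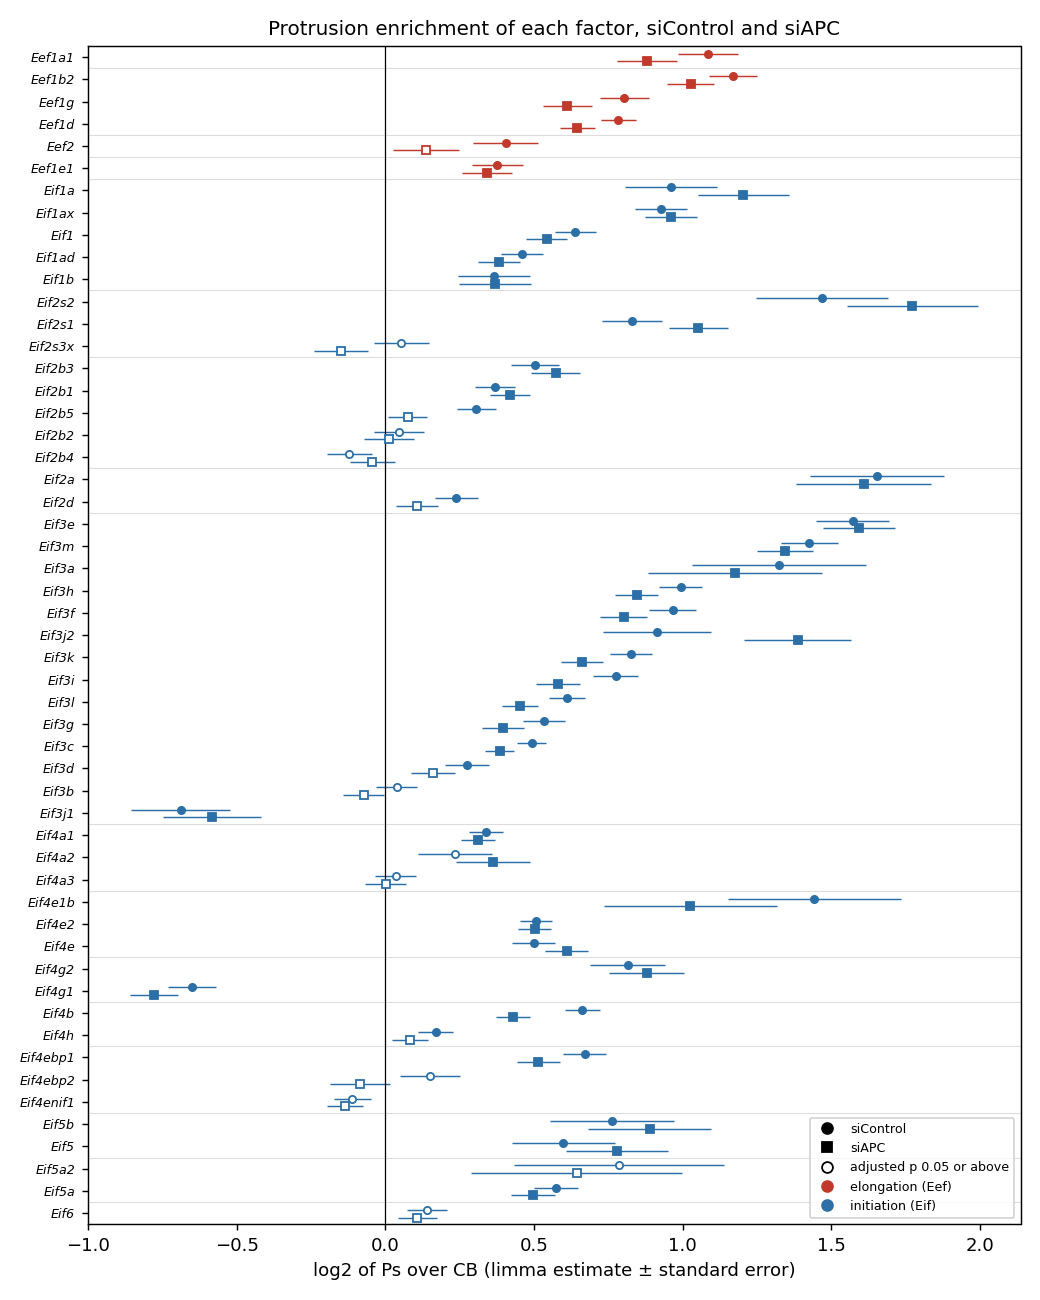
Log2 of Ps over CB (horizontal axis, limma estimate with standard error) for each of the 53 members, grouped by complex, in siControl (circles) and siAPC (squares), with Eef genes in red, Eif genes in blue and filled marks for an adjusted p below 0.05. The Eef genes sit between 0.38 and 1.17 in siControl, and the Eif genes spread from -0.69 (Eif3j1) to 1.65 (Eif2a).

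By the criterion of the study for a Ps-enriched RNA, a fold above 2 with an unadjusted p below 0.05, 8 members were Ps-enriched in siControl, against 7.19% of all genes, and 10 in siAPC, against 7.67%. The 8 were the elongation factors Eef1a1 and Eef1b2 and the initiation factors Eif2a, Eif2s2, Eif3a, Eif3e, Eif3m and Eif4e1b. Of these, 7 were Ps-enriched in siAPC too and Eef1a1 was not (log2 0.88, below the log2 of a 2-fold change). Eif1a, Eif2s1 and Eif3j2 passed the criterion in siAPC only. With GC content and length corrected, 5 members passed in siControl and 4 in siAPC, against 3.21% and 2.93% of all genes.

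Members with lower GC content tended to have higher Ps over CB values. Across the 53 members Spearman's rho between GC content and the log2 of Ps over CB in siControl was -0.49, and across 12882 genes it was -0.33. With transcript length rho was -0.08 across members and -0.35 across all genes. The points come from the same libraries and share their depth, so these are descriptions. The Eef and Eif genes had similar medians of GC content, 49.74% and 49.97%, and of length, 2126 and 2208 bases.

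In siAPC cells the enrichment persisted. In that group 5 of 6 Eef genes were higher in Ps (median 0.63, all except Eef2) and 32 of 47 Eif genes (median 0.50), while the lower ones numbered 2, again Eif3j1 (-0.58 ± 0.17) and Eif4g1 (-0.78 ± 0.08). Over all genes 29.8% were called higher and 30.9% lower. In all, 36 members were higher in Ps in both siRNAs, where the share of all genes cannot exceed the 29.1% called higher in siControl. Eef2, Eif2b5, Eif2d, Eif3d and Eif4h passed the test in siControl only and Eif4a2 in siAPC only, but none of the differences passed the test of the change itself. Without siControl CB replicate 3, Eif4h was not called in siControl (0.12, adjusted p = 0.0622) and Eif3d was called in siAPC (0.16, adjusted p = 0.0342). Eif4h also lost its call without siControl Ps replicate 3 or 4. Eif4a2 lost its call in siAPC without siAPC CB replicate 3 or siAPC Ps replicate 2, and its sign turned with the GC and length correction.

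For that change, the log2 of Ps over CB in siAPC minus that in siControl, 0 of 53 members passed an adjusted p of 0.05, as against 0.0% of all genes in the positive and 0.0231% in the negative direction. At an unadjusted p below 0.05, 0 members were higher and 2 were lower with limma, Eif4b and Eif2b5, against 2.07% of all genes higher and 1.71% lower. All 6 Eef genes had negative values, from -0.27 ± 0.15 for Eef2 to -0.04 ± 0.12 for Eef1e1, with a median of -0.17. The 47 Eif genes had a median of -0.08, with 31 negative and 16 positive values, and all genes a median of 0.01. The class medians depended on the scaling, at 0.04 (Eef) and 0.00 (Eif) with quantile normalization, and at -0.03 and 0.06 with values scaled to total listed reads, where all genes had 0.15. With array weights the Eef median was -0.07 and the Eif median -0.04. The lowest values of well-covered Eif genes were Eif2b5 (-0.23 ± 0.09), Eif4b (-0.23 ± 0.08) and Eif4ebp2 (-0.23 ± 0.14), and the highest were Eif3j2 (0.47 ± 0.26), Eif2s2 (0.30 ± 0.31) and Eif1a (0.24 ± 0.22). Without siControl CB replicate 3 these 3 highest were 0.40, 0.03 and 0.11, and the lowest well-covered Eif genes were Eif3a (-0.57), Eif2a (-0.33) and Eif2s3x (-0.29). With quantile normalization Eef2 was called in the positive direction (0.55, limma adjusted p = 0.000428). That scaling sets a value by its rank alone. Eef2 held rank 1 or 2 in siControl CB, 4 in siAPC CB and 3 in all Ps libraries. This p-value therefore does not measure the spread of its levels.

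Per pair, the Eef median of Ps over CB in siAPC was 0.63 ± 0.05 (SD, n = 4) and the Eif median 0.46 ± 0.04. The Eef median exceeded the Eif median by 0.17 ± 0.03, in 4 of 4 pairs. With quantile normalization this order was reversed too, with Eef minus Eif at -0.11 ± 0.03 and Eef higher in 0 of 4 pairs.

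**Figure D4:**
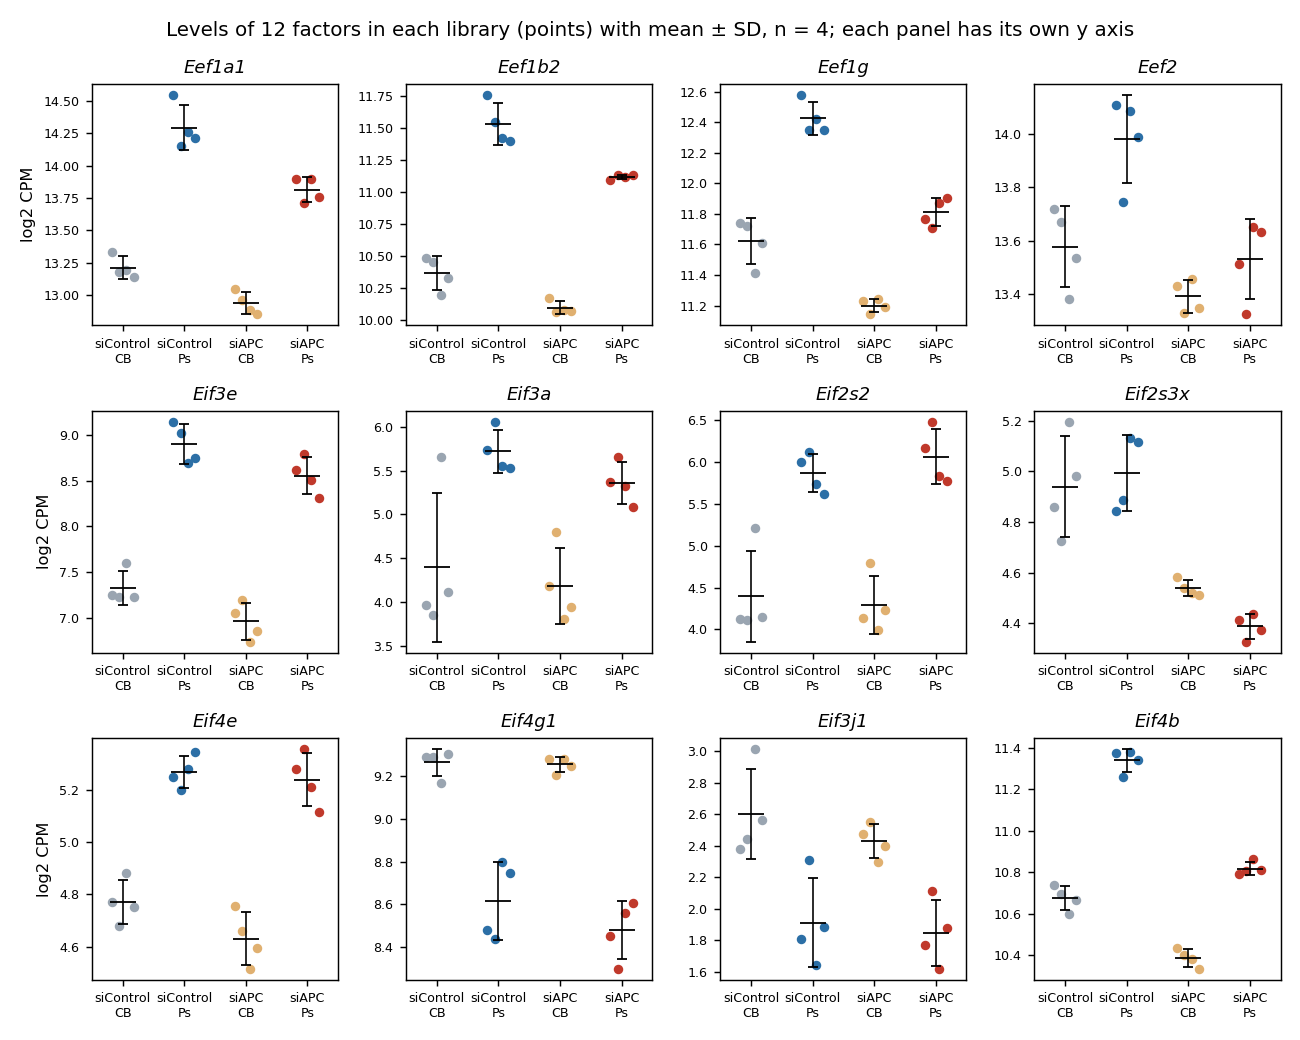
Log2 CPM (vertical axis, separate for each panel) of 12 factors in the 16 libraries, with points for libraries and bars for the mean ± SD of 4 libraries. Eef1a1, Eef1b2 and Eef1g rise from CB to Ps in both siRNAs and sit lower in siAPC Ps than in siControl Ps, Eif4g1 sits lower in Ps in both siRNAs, and Eif2s3x is lower with siAPC in both fractions.

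Levels with siAPC were compared with siControl within each fraction. In cell bodies, 2 of 6 Eef genes were lower and 0 higher, and 3 of 47 Eif genes were lower and 2 higher. Over all genes 5.87% were lower and 7.52% higher. The count of Eef genes lower in CB was 4 with values scaled to total listed reads (all genes 5.12%). It was 5 with quantile normalization (all genes 6.53%), array weights (15%) or the GC and length correction (12.9%). The count of Eif genes lower in CB was 12 with array weights and 11 with the GC and length correction, against these same shares of all genes. In protrusions 5 of 6 Eef genes were lower, all except Eef1e1, and 13 Eif genes were lower and 2 higher, against 11.2% lower and 10.7% higher among all genes. Scaled to total listed reads, 5 Eef and 4 Eif genes were lower and 8 Eif genes higher, against 4.23% lower and 22.6% higher. Under quantile normalization 2 Eef and 8 Eif genes were lower and 6 Eif genes higher, against 10.8% lower and 11.4% higher. The Eef median was -0.23 in CB and -0.43 in Ps, the Eif median -0.10 and -0.14, and the median of all genes -0.04 and -0.03. In Ps the Eif median was 0.02 and the Eef median -0.27 with values scaled to total listed reads, and -0.07 and -0.10 with quantile normalization.

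Counted by libraries that did not overlap, 5 Eef and 14 Eif genes had every siAPC Ps library below every siControl Ps library, as did 11.6% of all genes. In the other direction there were 0 Eef and 3 Eif genes, against 10.9%. The count of members that fell in Ps, 18 in all (all genes 11.2%), was 9 when values were scaled to total listed reads (4.23%) and 10 with quantile normalization (10.8%). The first of these scalings moved the median of all genes from -0.03 to 0.14, and 5 of the 9 genes called lower under it were Eef genes.

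The largest decrease among the elongation factors was that of Eef1g. It measured 12.58, 12.35, 12.42 and 12.35 in siControl Ps and 11.77, 11.71, 11.87 and 11.90 in siAPC Ps. The groups were separate, and the level fell by 0.61 ± 0.08 (limma adjusted p = 2.57e-05) in Ps and changed by -0.42 ± 0.08 in CB. Eef1a1 measured 13.90, 13.71, 13.89 and 13.76 in siAPC Ps, all below the siControl Ps libraries given above, a change of -0.48 ± 0.10 (adjusted p = 0.0019). In siAPC Ps Eef2 measured 13.51, 13.32, 13.65 and 13.63, also below all siControl Ps libraries, with a change of -0.45 ± 0.11 (adjusted p = 0.00579). With quantile normalization the change was 0.00 for both Eef1a1 and Eef2, which held ranks 1 to 3 in all Ps libraries.

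Eef1b2 changed by -0.41 ± 0.08 and Eef1d by -0.27 ± 0.06 in Ps, whereas Eef1e1 measured -0.09 ± 0.09. In cell bodies Eef1b2 was also called lower (-0.27 ± 0.08, adjusted p = 0.0298), a call that was lost in 6 of the 16 fits without 1 library. Eef1d was not called in CB (-0.13, adjusted p = 0.148) and was called lower without siControl CB replicate 3 (-0.17, adjusted p = 0.0394) and under total listed reads, quantile normalization, array weights and the GC and length correction. The Eef share of listed reads was 2.44% ± 0.05 in siAPC CB and 3.20% ± 0.17 in siAPC Ps, lower than in siControl, and no siAPC library reached a siControl library of the same fraction. The Eif share was 1.26% ± 0.01 in siAPC CB and 1.53% ± 0.02 in siAPC Ps, and in Ps its libraries overlapped those of siControl.

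**Figure D5:**
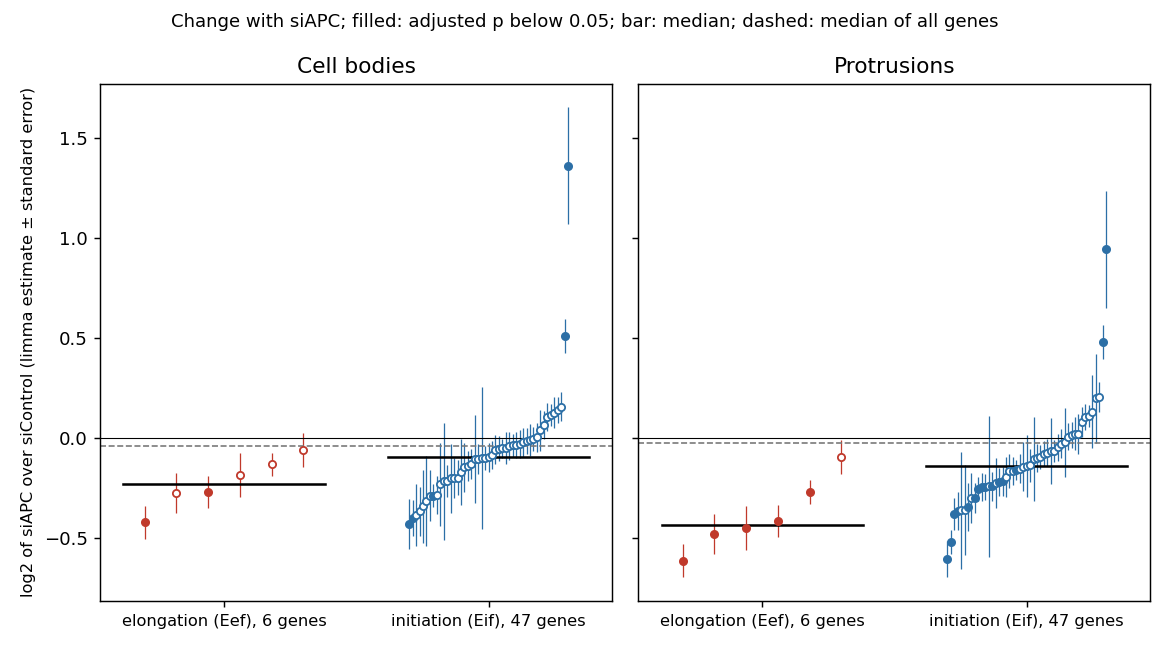
Log2 of siAPC over siControl (vertical axis, limma estimate with standard error) in cell bodies (left) and protrusions (right) for the 6 Eef (red) and 47 Eif genes (blue), with filled marks for an adjusted p below 0.05, black bars for the class medians and a dashed line for the median of all genes. In protrusions 5 of 6 Eef genes are filled and negative, and most Eif genes lie nearer to 0.

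Of the initiation factors that fell in siAPC protrusions, 9 of 13 belonged to eIF3 (Eif3c, Eif3d, Eif3e, Eif3f, Eif3h, Eif3i, Eif3k, Eif3l and Eif3m). Of the eIF3 genes, 9 were called lower in the deposited scaling, 2 with values scaled to total listed reads and 4 with quantile normalization, where 11.2%, 4.23% and 10.8% of all genes were lower. The sizes of these 9 were between -0.38 (Eif3f) and -0.16 (Eif3c), and in cell bodies 0 of 14 eIF3 genes passed the test (all genes 5.87% lower). With other settings up to 7 of the 14 were called lower in CB. The counts were 7 with array weights (all genes 15%) and 5 with the GC and length correction (12.9%). They were 3 with quantile normalization (all genes 6.53%) and 2 with the replicate block (7.36%). Whether the change differed between the fractions is tested by the change of Ps over CB given above. In CB, Eif3e (-0.37) was called lower in 5, Eif3m (-0.28) in 4 and Eif3f (-0.21) in 2 of the 16 fits that each left out 1 library, Eif3f without siControl CB replicate 3 among them (-0.30, adjusted p = 0.00574). Eif3e (-0.34 ± 0.12, adjusted p = 0.0494) was called in 6 of the 16 fits that each left out 1 library, Eif3d and Eif3k in 12, Eif3c in 13 and Eif3h in 14. The other 4 were Eif2b5, Eif2d (called in 11 of 16 such fits), Eif2s3x and Eif4b. With the replicate number as a block, Eif4a2 (-0.30, adjusted p = 0.0429) and Eif1ax (-0.17, adjusted p = 0.0403) were called lower and Eif2b4 higher (0.20, adjusted p = 0.0453) in Ps as well. Without siControl CB replicate 3 Eif4a2 and Eif2b4 were called too (adjusted p = 0.0333 and 0.0434), and Eif3g was called lower in Ps (-0.17, adjusted p = 0.034).

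Eif4b, an RNA-binding cofactor of the eIF4A helicase, measured 11.38, 11.26, 11.38 and 11.34 in siControl Ps and 10.79, 10.81, 10.86 and 10.81 in siAPC Ps, a change of -0.52 ± 0.06 (adjusted p = 2.55e-06). In cell bodies it changed by -0.29 ± 0.06. Eif2s3x measured 4.84, 4.89, 5.13 and 5.12 in siControl Ps and 4.41, 4.33, 4.44 and 4.37 in siAPC Ps, with no overlap and a change of -0.61 ± 0.09 (adjusted p = 8.04e-05). It also fell by 0.40 ± 0.09 in CB. Of its segments, 36.2% recur in other annotated genes. The beta subunit Eif2s2 did not pass the test in Ps (0.20 ± 0.22).

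In the opposite direction, Eif2b2, a subunit of the exchange factor eIF2B, measured 8.25, 8.23, 7.80 and 8.02 in siControl CB and 8.57, 8.54, 8.61 and 8.62 in siAPC CB. It rose by 0.51 ± 0.08 in CB (adjusted p = 0.000329) and by 0.48 ± 0.08 in Ps (adjusted p = 0.000396). In the main analysis the other eIF2B genes were not called higher in either fraction. Eif2b4 was called higher in Ps in the fits given above and without siAPC Ps replicate 2. Eif4e1b, the other gene that rose, had 4 to 45 reads in a library and a change of 1.36 ± 0.29 in CB. In Ps it changed by 0.94 (adjusted p = 0.0259), called in 13 of the 16 fits without 1 library (not without siAPC Ps replicate 3 or 4 or siControl Ps replicate 3). Eif4a2 was called lower in CB (-0.43 ± 0.12) and was not without siControl CB replicate 3 (-0.29 ± 0.11, adjusted p = 0.0772), nor without siAPC CB replicate 1, 3 or 4.

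The 9 members listed as TOP mRNAs, Eef1a1, Eef1b2, Eef1d, Eef1g, Eef2, Eif3e, Eif3f, Eif3h and Eif4b, were all higher in Ps of siControl (median 0.97) and all lower with siAPC in Ps (median -0.41), against 29.1% of all genes higher and 11.2% lower. With quantile normalization 6 of the 9 were higher and 2 lower in Ps of siControl, and 4 were lower with siAPC in Ps, where Eef1a1, Eef1b2, Eef2, Eif3e and Eif3h lost the call. With values scaled to total listed reads 8 were higher in Ps of siControl and 7 lower with siAPC in Ps. The 43 other Eif genes had 31 higher in Ps of siControl (median 0.50) and 9 lower with siAPC in Ps (median -0.11). Of 9 further TOP mRNAs from outside the class, 8 were higher in Ps of siControl and 5 of these 8 were lower with siAPC in Ps. Examples were Tpt1, encoding translationally controlled tumor protein, at 1.52 ± 0.10 and the nucleolar chaperone Npm1 at 1.86 ± 0.23 for Ps over CB. These lists share genes with the classes and with each other and were put together with earlier results of these libraries known, so they are no independent evidence.

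Genes of neighbouring steps were counted from lists, to be read against 29.1% of all genes higher and 31.2% lower in Ps of siControl. Of 5 termination and recycling genes, 4 were higher in Ps of siControl (Abce1 0.89, Etf1 0.74, Gspt1 0.61 and Hbs1l 0.52) and Pelo was lower (-0.32). In a list of 5 genes for poly(A)-binding proteins and their partners and Pdcd4, an inhibitor of eIF4A, 4 of 6 were higher, with Paip2, an inhibitor of poly(A)-binding protein, at 1.11 and Pabpc1 itself at 0.81. Pabpc1 and Pabpc4 were lower with siAPC in Ps (-0.54 and -0.62) and Paip2b was higher (0.53, adjusted p = 0.000198).

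Of 13 kinases and regulators, 2 were higher and 6 lower in Ps of siControl (all genes 29.1% and 31.2%). The lower ones included Eif2ak3, the kinase that senses stress in the endoplasmic reticulum (-1.16 ± 0.09), Mtor (-0.38 ± 0.09), its partner Rptor (-0.52 ± 0.10) and Eef2k, the kinase that inhibits eEF2 (-0.39 ± 0.11). The 2 higher ones were Rps6 (1.35 ± 0.09) and the RNA-activated kinase Eif2ak2 (0.79 ± 0.22). Of 9 mitochondrial translation factors, 1 was higher (Mrrf, the ribosome recycling factor, 0.73 ± 0.07) and the other 8 did not pass the test, against the same shares of all genes, with a median over the list of 0.13. The enzymes Dhps and Dohh, which modify eIF5A, did not pass the test (-0.04 and -0.10).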

How the data were processed

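The deposited values are log2 CPM that the authors computed with limma-voom (limma 3.26.1) after alignment to mm10 with STAR 2.4.2a and counting with Rsubread. Their expression cutoff removed low genes, so a gene missing from the table was not analysed here. Whether strand was used in counting is not given in the sources used here. Inverting the voom formula gave whole reads for 100% of 208240 values (within 0.01 read), and these supplied depths and shares. The main test was limma 3.58.1 (R 4.3.3, lmFit, then eBayes with a trend), fitted to the deposited log2 values across the 16 libraries, with 1 mean per group and p adjusted over 13015 genes. Class medians have no test. On simulated data with known changes the fit was checked before use. Positions, lengths and 50-base segments came from a GENCODE annotation of the mouse build GRCm38, in which 12882 genes (99.0%) matched.

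Members and lists were chosen with earlier results of these data known. Named were Apc, all Eef genes, Eif genes (mean log2 value 1 or more) with the 6 highest and 6 lowest Ps over CB values in siControl or the 3 highest and 3 lowest values in the other contrasts (the change of Ps over CB, and siAPC against siControl in each fraction), paralogs, list genes, and members at the ends of their complex or called with siAPC. Same-numbered libraries deviated together between CB and Ps in siAPC (correlations 0.42 to 0.62 over 10292 genes) and between siControl and siAPC in Ps (0.16 to 0.55). Some unlike numbers correlated more strongly. The siAPC libraries CB replicate 3 and Ps replicate 4 gave 0.57, against 0.53 for CB and Ps replicate 3. In Ps, siControl replicate 4 gave 0.31 with siAPC replicate 3 and 0.23 with siAPC replicate 4. The numbers are therefore not shown to pair samples. With the replicate number as a block, no count of members in these comparisons moved by over 1.5 times. Alternatives were the block, scaling to total listed reads, quantile normalization, array weights, voom weights, a loess correction for GC content and length, a mean of at least 1, and leaving out libraries. Of the TOP mRNAs outside the class, 1 is not reported here.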

Additional observations from a re-analysis of the deposited data

Results flagged for a closer look

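In 148 groups of 4 libraries (37 genes), 13 had 1 library far from the other 3 by Dixon's test at 95%, where chance gives about 5% of groups. Of these, 7 were siControl CB replicate 3. It was the highest library for Eif3a (5.66, others 3.85 to 4.11), Eif2s2 (5.21, others 4.11 to 4.15), Eif3e (7.60, others 7.22 to 7.25) and Eif4a2 (7.14, others 6.57 to 6.61). It was the lowest library for Eif4g1 (9.17, others 9.29 to 9.31), Eif3b (8.57, others 8.79 to 8.82) and Eif4ebp1 (8.19, others 8.38 to 8.40). In siControl Ps, replicate 1 was highest for Eef1d (9.59) and Eif2b2 (8.28) and lowest for Eif4enif1 (5.40), and replicate 2 was lowest for Eif2b4 (5.29) and Eif5a (10.70). In siAPC CB, replicate 1 was highest for Eef1b2 (10.17).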

How the results depend on the processing

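The counts of members higher in Ps stayed within 1.5 times of 41 (siControl) and 37 (siAPC) under each alternative run. With values scaled to total listed reads, which moved the median Ps over CB of all genes in siControl from -0.001 to -0.30, 9 members were lower in Ps in siControl and 7 in siAPC (all genes 47.6% and 39.3%), and with siAPC in Ps 8 were higher and 9 lower (all genes 22.6% and 4.23%). The per-pair medians, averaged over the 4 pairs, then were 0.50 (Eef) and 0.22 (Eif) in siControl and 0.47 and 0.31 in siAPC. Members that turned lower in Ps in siControl included Eif4a3 (-0.26) and Eif3b (-0.26). With quantile normalization 4 members were lower in Ps in siControl (all genes 30.2%). For the change of Ps over CB with siAPC, 1 was higher (Eef2, 0.55, all genes 0.0154%), a call that rests on its near-constant ranks. With siAPC in CB 5 were higher and 10 lower (all genes 8.43% and 6.53%). With siAPC in Ps 6 were higher and 10 lower (all genes 11.4% and 10.8%). The per-pair medians were then 0.36 (Eef) and 0.46 (Eif) in siControl. In siAPC the Eef median was 0.36, and Eef minus Eif was -0.11. Ps over CB reversed for Eef2 (-0.34), Eef1g (-0.029) and Eif5a (-0.034) in siControl and for Eef1g (-0.024), Eif4a1 (-0.066) and Eif5a (-0.12) in siAPC. Eif4b reversed in both siRNAs too. Its ranks among all genes were 55 to 62 in siControl CB and 66 to 86 in siControl Ps, and 74 to 80 in siAPC CB and 89 to 96 in siAPC Ps. The loess correction gave 16 members lower with siAPC in CB (all genes 12.9%) and 4 higher with siAPC in Ps (all genes 13.0%). It gave 5 and 4 Ps-enriched members in siControl and siAPC (all genes 3.21% and 2.93%). The Eif medians were 0.42 and 0.37, and the correction reversed Eif2b4 in siControl (0.14) and Eif4a2 in siAPC (-0.089). Members lower with siAPC in CB, 5 in the main analysis (all genes 5.87%), numbered 17 with array weights (15%) and 10 without the library of each group with the strongest GC trend (8.51%). A mean of at least 1 left 1 member higher with siAPC in CB and 1 in Ps (all genes 7.49% and 10.9%). A fold above 1.5 gave 26 and 21 Ps-enriched members (all genes 17.0% and 17.8%). Leaving out each library in turn gave 3 to 9 members lower in CB and 1 to 3 higher in Ps with siAPC. The causes were not tested.

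With the replicate block, 9 members were lower with siAPC in CB (all genes 7.36%). Same-numbered libraries did not all deviate together there (correlations 0.27, -0.34, -0.32 and 0.26) or between CB and Ps in siControl (0.34, -0.12, -0.12 and 0.43), so the numbers may not pair these samples. Depth limits Eif4e1b and Eif5a2, the members with the fewest reads.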
